A study of Mus musculus with 8 samples.

Results

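The peaks described here cross an exon-intron boundary: they cover exon on one side of a splice site and intron on the other. A peak was counted when it held at least 5 exonic and at least 5 intronic bases across a splice site of the APPRIS principal transcript of a protein-coding gene, on the same strand (GENCODE M21, genome build GRCm38). Such peaks made up 842 of 26879 peaks in 3 lists, with 34 of 1278 in the small intestine list, 611 of 16455 in the colon mAb list and 197 of 9146 in the colon rAb list. The choice rests on position alone and used neither the fold nor the p-value of a peak. The lists were kept apart throughout.

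The lists came from eCLIPseq of DDX5, in which UV light links protein to RNA, the protein is immunoprecipitated (IP), and the RNA it carries is sequenced beside a size-matched input. The small intestine list rests on 2 CLIP and 2 input samples of epithelial cells from wild type C57BL/6 female mice, 8 weeks old by the labels, and merges the replicates into 1 table. Each colon list rests on 1 CLIP and 1 input sample of C57BL/6 colon epithelium, although the lists themselves are marked as merged replicates. The genotype label of the colon samples reads wild type, while their growth protocol names 120-day-old Apcfl/+ CDX2Cre mice. In such mice a Cdx2 promoter drives Cre in gut epithelium and 1 Apc allele is floxed. The paper describes colonic eCLIPseq on cells of 2 independent wild type mice, so these sources differ on the colon mice. The labels give the same antibody catalogue entry for mAb and rAb, so what separates these colon samples is not given in the sources used here. All cells were released with EDTA. Of 9 epithelial markers, 5 had a peak in the small intestine list, 8 in colon mAb and 7 in colon rAb, and Epcam, Cdh1, Vil1, Krt8 and Krt20 were among them in every list. Enterocyte markers had peaks in the small intestine only (7 of 9 against 0 and 0), and colonocyte markers in the colon only (0 of 6 against 6 and 2). Of 6 leukocyte markers, Cd74 and Lyz2 had peaks in both colon lists, and of 7 stromal and muscle markers 0, 5 and 3 had a peak in the small intestine, mAb and rAb lists. Their part in the results was not tested. The small intestine list holds only peaks with log2 fold (IP over input) and −log10 p of 3 or more, a filter the colon lists lack. A marker without a small intestine peak is therefore not shown to be absent from those cells.

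DDX5 is a DEAD-box RNA helicase, an enzyme that remodels RNA and RNA-protein complexes with ATP, and it is known from splicing, transcription and RNA processing. At the start of an intron lies the 5′ splice site, which base-pairs with U1 small nuclear RNA; at its end lies the 3′ splice site, behind a pyrimidine-rich stretch bound by U2AF. Spliced mRNA has lost both junctions between exon and intron. An RNA fragment with bases on both sides of one can come from unspliced pre-mRNA or from an excision intermediate. It can also come from an isoform that keeps all or part of the intron as exon. Whether single fragments span the boundary under a crossing peak was not tested.

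The crossing peaks past the cutoff that carry the values below are shown first, in GRCm38 coordinates, written in the direction of the RNA. Capitals mark the exonic bases of the principal transcript and lower case the intronic bases. A site is a peak with log2 fold (IP over input) and −log10 p of 3 or more. The colon sites at 3′ splice sites, where intron precedes exon, are those in which both colon lists can be set side by side.
Fam3c intron 5, colon mAb list, chr6:22322323-22322357, strand minus: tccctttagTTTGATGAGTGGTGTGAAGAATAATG
Fam3c intron 5, colon rAb list, chr6:22322327-22322397, strand minus: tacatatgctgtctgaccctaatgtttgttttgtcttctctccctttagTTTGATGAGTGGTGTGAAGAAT
Ahcyl1 intron 5, colon mAb list, chr3:107672114-107672141, strand minus: cgtagGAGTCGCGGTGTTTGCTTGGAAG
Srsf10 intron 2, colon rAb list, chr4:135861748-135861835, strand plus: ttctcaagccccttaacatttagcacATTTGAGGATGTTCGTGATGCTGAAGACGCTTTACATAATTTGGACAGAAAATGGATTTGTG
Rnf43 intron 4, colon rAb list, chr11:87727330-87727422, strand plus: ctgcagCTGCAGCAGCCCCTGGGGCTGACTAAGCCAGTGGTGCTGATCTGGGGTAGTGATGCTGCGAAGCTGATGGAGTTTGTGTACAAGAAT
Xpo6 intron 4, colon rAb list, chr7:126160967-126161025, strand minus: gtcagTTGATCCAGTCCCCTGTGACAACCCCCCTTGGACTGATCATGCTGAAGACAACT
Sdcbp intron 4, colon rAb list, chr4:6385023-6385096, strand plus: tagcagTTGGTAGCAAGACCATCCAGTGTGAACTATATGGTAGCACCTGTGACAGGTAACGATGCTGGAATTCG
Actn1 intron 6, colon rAb list, chr12:80193636-80193724, strand minus: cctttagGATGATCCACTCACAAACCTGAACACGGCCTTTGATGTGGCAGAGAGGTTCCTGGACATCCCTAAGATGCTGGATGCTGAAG
All 8 have coding exonic bases. At Fam3c the colon peaks share the end of intron 5 and the start of the following coding exon. The mAb peak held 9 intronic bases and the rAb peak 49. A further mAb peak, not past the cutoff, began where the first stopped and lay wholly in the intron (chr6:22322358-22322398, log2 fold 3.37). Both colon lists thus had peaks over that stretch of the intron. The Srsf10 peak ends its intron in AC rather than the usual AG.

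The 1 coding colon site at a 5′ splice site, in which exon precedes intron, lies in Nr1h2, which encodes the oxysterol receptor LXRβ.
Nr1h2 intron 5, colon mAb list, chr7:44551902-44552035, strand minus: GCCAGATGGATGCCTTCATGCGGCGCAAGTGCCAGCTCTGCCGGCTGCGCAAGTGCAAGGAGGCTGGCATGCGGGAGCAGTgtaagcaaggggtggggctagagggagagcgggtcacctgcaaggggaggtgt

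Of the small intestine peaks at 5′ splice sites, the 3 coding ones of highest log2 fold are shown, with those of Muc13 and Epcam, which the colon mAb list also covered.
Hsp90b1 intron 17, small intestine list, chr10:86691606-86691694, strand minus: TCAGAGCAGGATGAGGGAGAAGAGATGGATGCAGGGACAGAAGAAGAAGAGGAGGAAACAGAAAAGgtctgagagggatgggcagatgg
Map7 intron 4, small intestine list, chr10:20245373-20245442, strand plus: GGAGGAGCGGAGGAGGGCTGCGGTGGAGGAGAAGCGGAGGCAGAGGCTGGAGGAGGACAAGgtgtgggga
Zfp91 intron 6, small intestine list, chr19:12776849-12776920, strand minus: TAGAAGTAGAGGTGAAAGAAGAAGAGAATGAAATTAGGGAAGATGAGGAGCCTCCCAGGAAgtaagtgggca
Muc13 intron 4, small intestine list, chr16:33803138-33803182, strand plus: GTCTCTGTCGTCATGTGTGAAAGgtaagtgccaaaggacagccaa
Epcam intron 8, small intestine list, chr17:87646303-87646346, strand plus: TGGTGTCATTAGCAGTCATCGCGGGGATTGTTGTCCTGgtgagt
The 4 coding small intestine peaks of highest log2 fold at 3′ splice sites follow.
Arid4b intron 16, small intestine list, chr13:14169914-14170074, strand plus: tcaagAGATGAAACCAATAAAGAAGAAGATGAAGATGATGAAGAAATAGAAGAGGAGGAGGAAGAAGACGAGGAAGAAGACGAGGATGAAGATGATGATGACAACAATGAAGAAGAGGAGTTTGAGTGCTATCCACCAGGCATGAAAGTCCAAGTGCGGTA
Dgat1 intron 6, small intestine list, chr15:76503952-76503982, strand minus: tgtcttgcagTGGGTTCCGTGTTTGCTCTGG
Muc13 intron 4, small intestine list, chr16:33804575-33804611, strand plus: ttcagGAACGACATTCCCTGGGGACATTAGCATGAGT
Myo15b intron 22, small intestine list, chr11:115877699-115877772, strand plus: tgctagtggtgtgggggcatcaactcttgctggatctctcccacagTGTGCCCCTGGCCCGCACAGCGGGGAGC
In these, the exonic side was longer than the intronic side in all but Myo15b, whose peak held 46 intronic and 28 exonic bases.

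Crossing peaks were a small part of each list. They made up 2.66% of small intestine peaks (exact Clopper-Pearson 95% interval 1.85 to 3.70), 3.71% of colon mAb peaks (3.43 to 4.01) and 2.15% of colon rAb peaks (1.87 to 2.47). These intervals, like the others given here, cover counting error only. They treat peaks as independent, which peaks of 1 gene are not. With 1 list per group there is no replicate check of any difference between lists. The lists also differ in tissue, mouse, library type (paired-end in the small intestine, single-end in the colon) and in how peaks were listed, and these cannot be told apart.

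The small intestine peaks lay mostly at 5′ splice sites. There, 27 of 34 covered a 5′ splice site (79.4%, 62.1 to 91.3) and 7 a 3′ splice site. In the colon mAb list 332 of 611 covered a 5′ splice site (54.3%, 50.3 to 58.3), 276 a 3′ splice site and 3 one of each. In the colon rAb list the numbers were 118 of 197 (59.9%, 52.7 to 66.8), 78 and 1. That small intestine share moved to 57.5% (69 of 120) when 1 base on each side was enough, and to 63.7% (58 of 91) when the last base of each peak was also left out, so it depended on how far a peak had to reach.

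Most crossing peaks were exonic peaks with a short intronic end. At 5′ splice sites the median number of exonic bases was 61 in the small intestine, 35 in colon mAb and 38 in colon rAb, against 13, 15 and 16 intronic bases. At 3′ splice sites the medians were 32, 31 and 36 exonic against 8, 20 and 12 intronic bases. Peaks with more intronic than exonic bases were a minority at both ends: 4 of 27 and 2 of 7 in the small intestine, 107 of 339 and 104 of 283 pairs of peak and splice site in colon mAb, and 31 of 124 and 17 of 79 in colon rAb. The median width of members was 73, 55 and 54 bases, against 57, 48 and 48 over all peaks; the rule asks for at least 10 bases and so favours wide peaks.

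**Figure D1:**
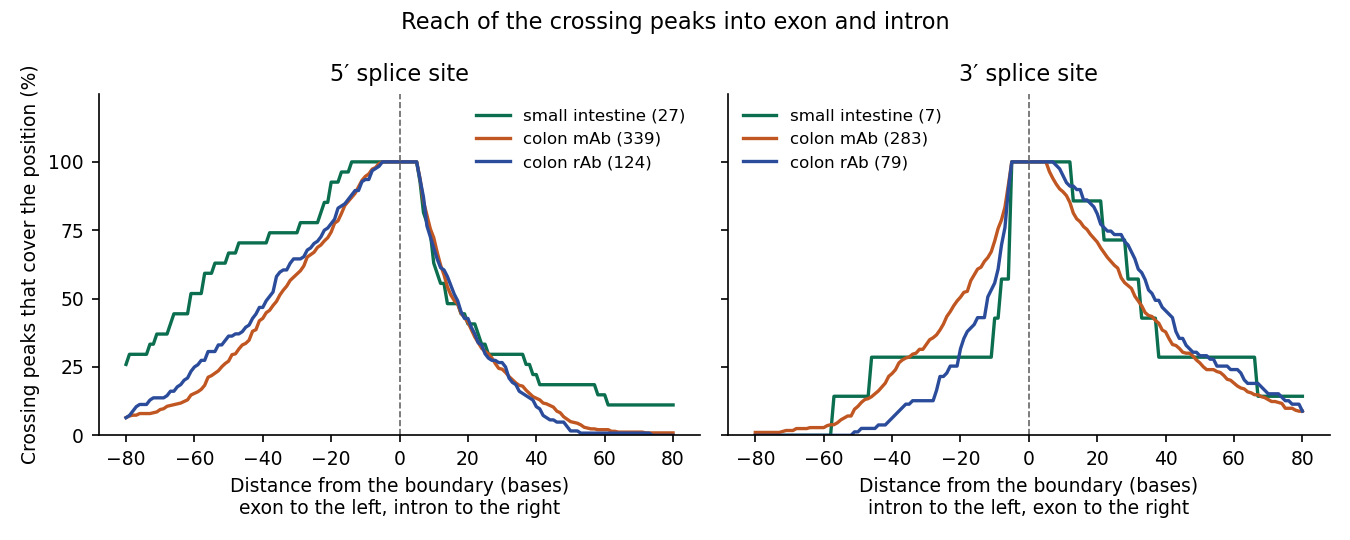
Share of crossing peaks (y axis, percent) that cover each position around the splice site (x axis, bases from the boundary), for 5′ splice sites on the left and 3′ splice sites on the right. Lines stand for the 3 lists, with the number of pairs of peak and splice site in the legend; the small intestine line extends furthest into the exon at 5′ splice sites, where its median exonic reach was 61 bases.

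Far more peaks stopped within a few bases of the boundary than went past it. The commonest edge depended on the side of the chromosome rather than on the end of the intron. Where the intron lay to the left on the chromosome, 1323 mAb and 872 rAb peaks began exactly with the exon, and far fewer 1 base into the intron (59 in rAb). Where it lay to the right, 252 and 178 ended exactly with the exon, and 933 and 547 ended 1 base past it. The deposited ends of the colon peaks thus mostly lie 1 base beyond the exon on one side only, and an overhang of 1 base there is not read as intronic signal. Leaving out the last base of each peak kept 34, 583 and 184 members, without the sites of Ahcyl1 in mAb and Xpo6 in rAb, which then held 4 intronic bases; this alternative was chosen after seeing the data. Peaks that crossed by 1 to 4 bases on at least one side, and so were not counted, numbered 86 in the small intestine, 1464 in colon mAb and 795 in colon rAb. At 5′ splice sites with 5 or more exonic bases, 43, 722 and 420 peaks held only 1 to 4 intronic bases. The peaks just outside the rule, with 4 bases on the shorter side, had a median log2 fold of 3.72 (10 peaks), 1.15 (76) and 2.07 (39). Those just inside, with 5 bases, had 3.78 (5 peaks), 1.15 (57) and 2.07 (18). A read that is spliced but aligned without its junction can leave bases in the intron when the intron starts like the next exon. The intronic bases of a member matched the neighbouring exon from the boundary outwards over a median of 1 base in each list. This run was counted up to the first differing base, so spliced reads aligned with mismatches were not tested. The match covered all intronic bases in 0 of 34 small intestine, 0 of 622 mAb and 1 of 203 rAb pairs, and 31, 567 and 184 pairs still had 5 or more intronic bases once the matching run was taken off. Of the sites, Ahcyl1 in mAb, Rnf43 and Xpo6 in rAb, and Arid4b, Epcam and the 3′ peak of Muc13 in the small intestine then held fewer than 5, which leaves 3 of 4, 4 of 6 and 31 of 34.

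**Figure D2:**
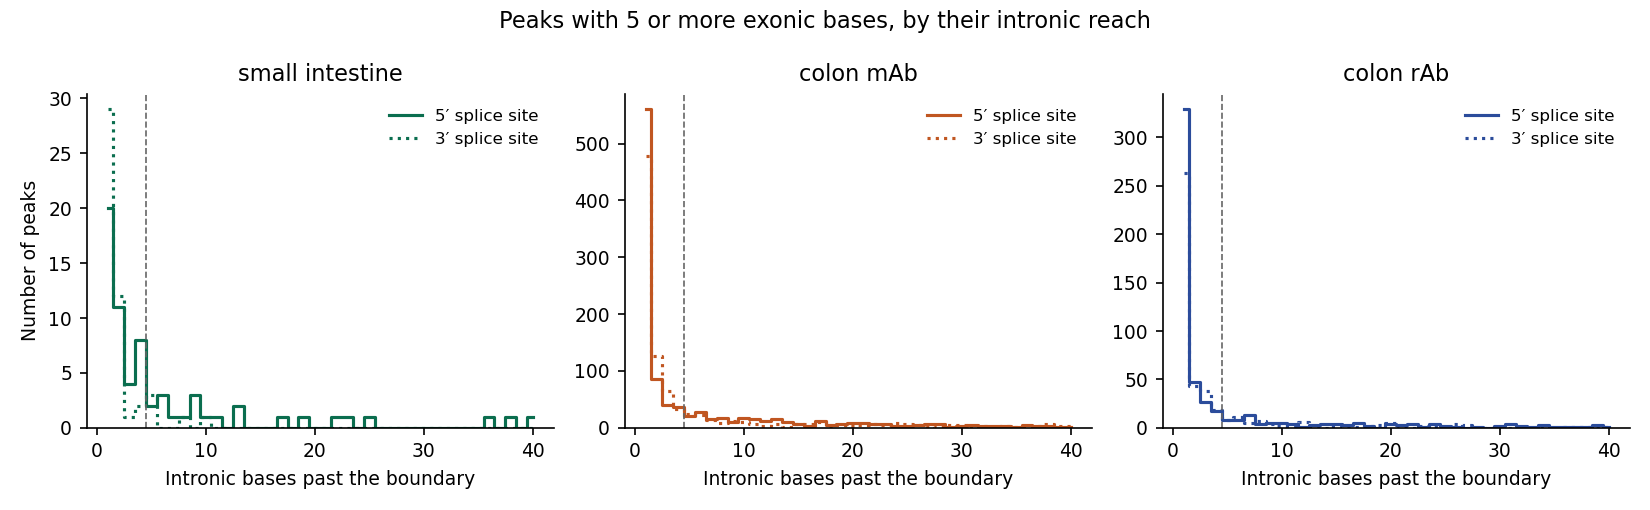
Number of peaks (y axis) by intronic bases past the boundary (x axis, 1 to 40), for peaks with 5 or more exonic bases, with solid lines for 5′ and dotted lines for 3′ splice sites in each list. The dashed line stands between 4 and 5 bases; the highest counts lie at 1 intronic base in every panel, left of the line, with 560 peaks at 5′ splice sites in colon mAb, where most deposited ends lie 1 base past the exon when the intron is to the right.

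The intronic bases were mostly in no annotated exon. This held for 30 of 34 small intestine peaks (88.2%, 72.5 to 96.7), 456 of 611 colon mAb peaks (74.6%, 71.0 to 78.0) and 138 of 197 colon rAb peaks (70.1%, 63.1 to 76.4). A transcript annotated as retained intron held some of the intronic bases in 2, 108 and 42 peaks, and coding sequence of another transcript in 0, 16 and 6. For the small intestine, 0 of 34 allows a share of up to 8.82%. Small non-coding RNA genes lay under 1 small intestine peak (Ifrd1, over 39 bases of the microRNA gene Mir1938), under 2 mAb peaks (Sirt7 with Mir6936 and Ssh3 with Mir6985) and under 0 of 197 rAb peaks, which allows up to 1.52%.

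The share of crossing peaks that were sites lay near that of all peaks in each colon list. In the small intestine all 34 were sites, but so was every listed peak (100%), because that table holds sites only. In colon mAb 4 of 611 members were sites (0.655%, 0.179 to 1.67) beside 1.22% of all peaks, and in colon rAb 6 of 197 (3.05%, 1.13 to 6.51) beside 1.99% of all peaks. Both shares lie near the share of their list, with intervals that include it. Of the peaks wholly in coding exons 0.444% were sites in mAb and 1.10% in rAb, and of those in introns within 500 bases of an exon, called proximal here, 3.10% and 1.48%.

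The median log2 fold of crossing peaks was 3.71 in the small intestine, 1.15 in colon mAb and 2.07 in colon rAb. Over all peaks it was 4.29, 1.15 and 2.24, so small intestine members lay lower (interval of their median 3.37 to 3.99). A log2 fold above 0 was found in 87.7% of mAb members (84.9 to 90.2) and 97.5% of rAb members (94.2 to 99.2), beside 83.9% and 92.1% of all peaks. In every list it lay below that of proximal intron peaks (4.58, 2.15 and 2.43). Against coding exon peaks it was 3.71 to 3.75 in the small intestine, 1.15 to 0.979 in mAb and 2.07 to 1.65 in rAb. The lists' folds rest on different inputs and on different listing rules, so their levels are not compared with each other. In the colon the folds come from few reads: traced back to whole reads, mAb members had a median of 5 IP reads (498 members traced, 3 to 33) and rAb members of 4 (186 traced, 3 to 35). Folds therefore fall on a few steps, and 25.8% of all mAb and 24.9% of all rAb peaks had the one commonest value. Among members with 10 or more IP reads, 4 of 51 in mAb (7.84%, 2.18 to 18.9) and 4 of 12 in rAb (33.3%, 9.92 to 65.1) were sites. Of all peaks with that many IP reads 17.4% were sites in mAb and 17.9% in rAb.

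**Figure D3:**
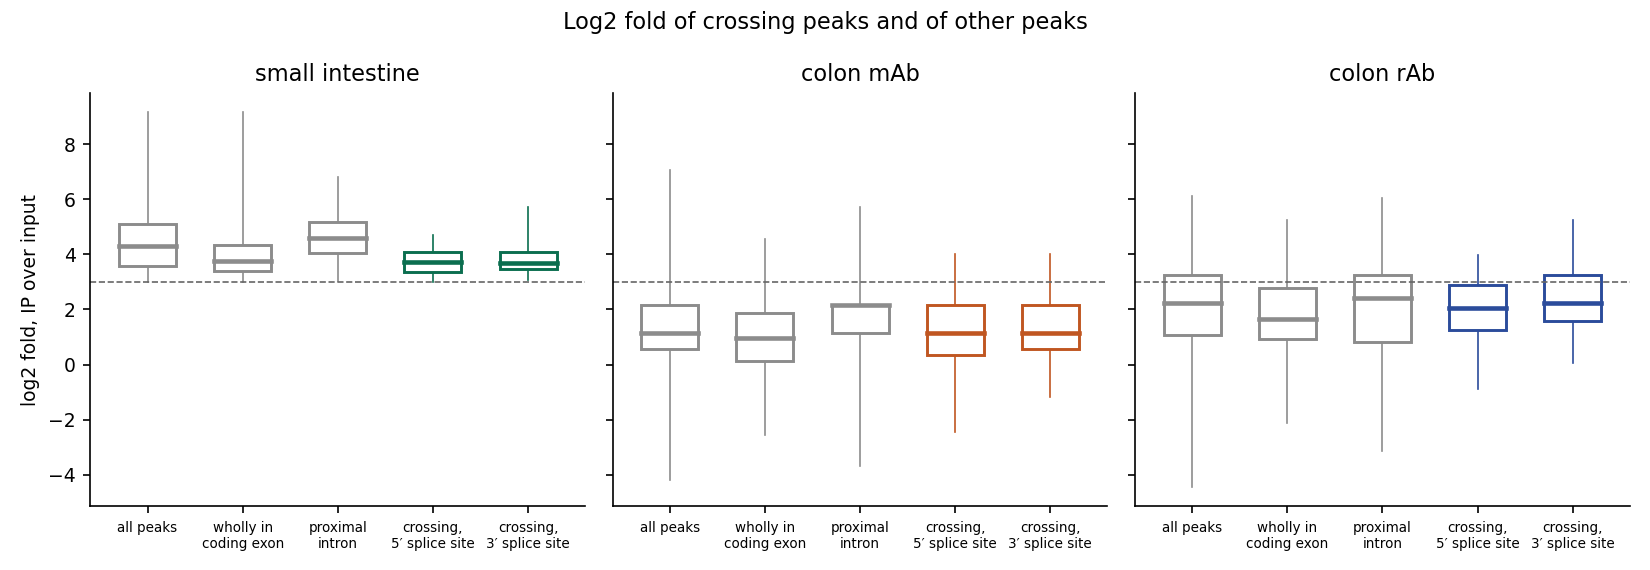
Log2 fold of IP over input (y axis) for all peaks, peaks wholly in a coding exon, peaks in proximal intron (grey), and crossing peaks at 5′ and 3′ splice sites (colour), in the 3 lists. Boxes span the quartiles with the median as a thick line, whiskers reach the lowest and highest peak, and the dashed line is the cutoff of 3; in colon mAb and rAb the boxes of crossing peaks lie mostly below it, with medians from 1.15 to 2.24.

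In the colon rAb list the sites lay at 3′ splice sites: 6 of 78 members there were sites (7.69%, 2.88 to 16.0), against 0 of 118 at 5′ splice sites, which allows a share of up to 2.54%. The highest log2 fold of a 5′ member was 3.98, with too few reads for the p-value. In colon mAb, 2 of 332 and 2 of 276 members were sites, so that pattern was not seen there.

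The 6 rAb sites were as follows. Srsf10, an SR-family splicing factor, had a log2 fold of 5.24 from 12 IP reads and 1 input read. Rnf43, an E3 ubiquitin ligase that removes Wnt receptors from the cell surface, had 5.07 from 32 IP and 3 input reads. Xpo6, an exportin for actin and profilin, had 4.46 from 7 and 1 reads. These are the 3 highest. For the first and the third the traced input was 1 read, the lowest the tracing allowed. Sdcbp, the scaffold protein syntenin, had 3.98 from 35 and 7 reads. Fam3c, a secreted factor linked to epithelial plasticity, had 3.82 from 9 and 2 reads. Actn1, an actin-bundling α-actinin, had 3.35 from 13 and 4 reads. Of these, Xpo6, Rnf43, Sdcbp and Actn1 reach only 5 to 7 bases into the intron, whereas Srsf10 held 26 and Fam3c 49 intronic bases.

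Each of the 6 also lay over a peak of the colon mAb list, and 5 of the 8 mAb peaks involved were sites. At Rnf43 the mAb peak had a log2 fold of 3.26 (26 IP and 4 input reads), at Sdcbp 3.09 (46 and 8 reads) and at Xpo6 4.26 and 3.26 (13 IP reads each, with 1 and 2 input reads). The enrichment at these 3 exons was thus in both colon lists. The mAb peaks there held only 2, 4 and at most 2 intronic bases, so they were not crossing peaks under the rule. At Actn1 the mAb peak had 1.56 and at Srsf10 2.37, below the cutoff.

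The 4 colon mAb sites were split between the ends. Fam3c at the 3′ splice site of intron 5 had 4.02 from 22 IP and 2 input reads. Coro1c, an actin-binding coronin, had 4.02 at the 5′ splice site of intron 1 from 11 IP reads and 1 input read, with 52 exonic bases in the 5′ UTR and 80 intronic bases. Nr1h2 had 3.89 at the 5′ splice site of intron 5 from 10 IP reads and 1 input read, and its intron is 95 bases long. Ahcyl1, a regulator of the inositol trisphosphate receptor, had 3.47 at the 3′ splice site of intron 5 from 15 and 2 reads. The rAb list had peaks over the Ahcyl1 and Nr1h2 members, all with log2 fold from 2.92 to 2.98, and none over Coro1c. The rAb peak at Nr1h2 also missed the p cutoff, with −log10 p of 1.96 from 5 IP and 2 input reads. The rAb peaks over Ahcyl1 and Nr1h2 held at most 2 intronic bases, so they were not crossing peaks under the rule.

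**Figure D4:**
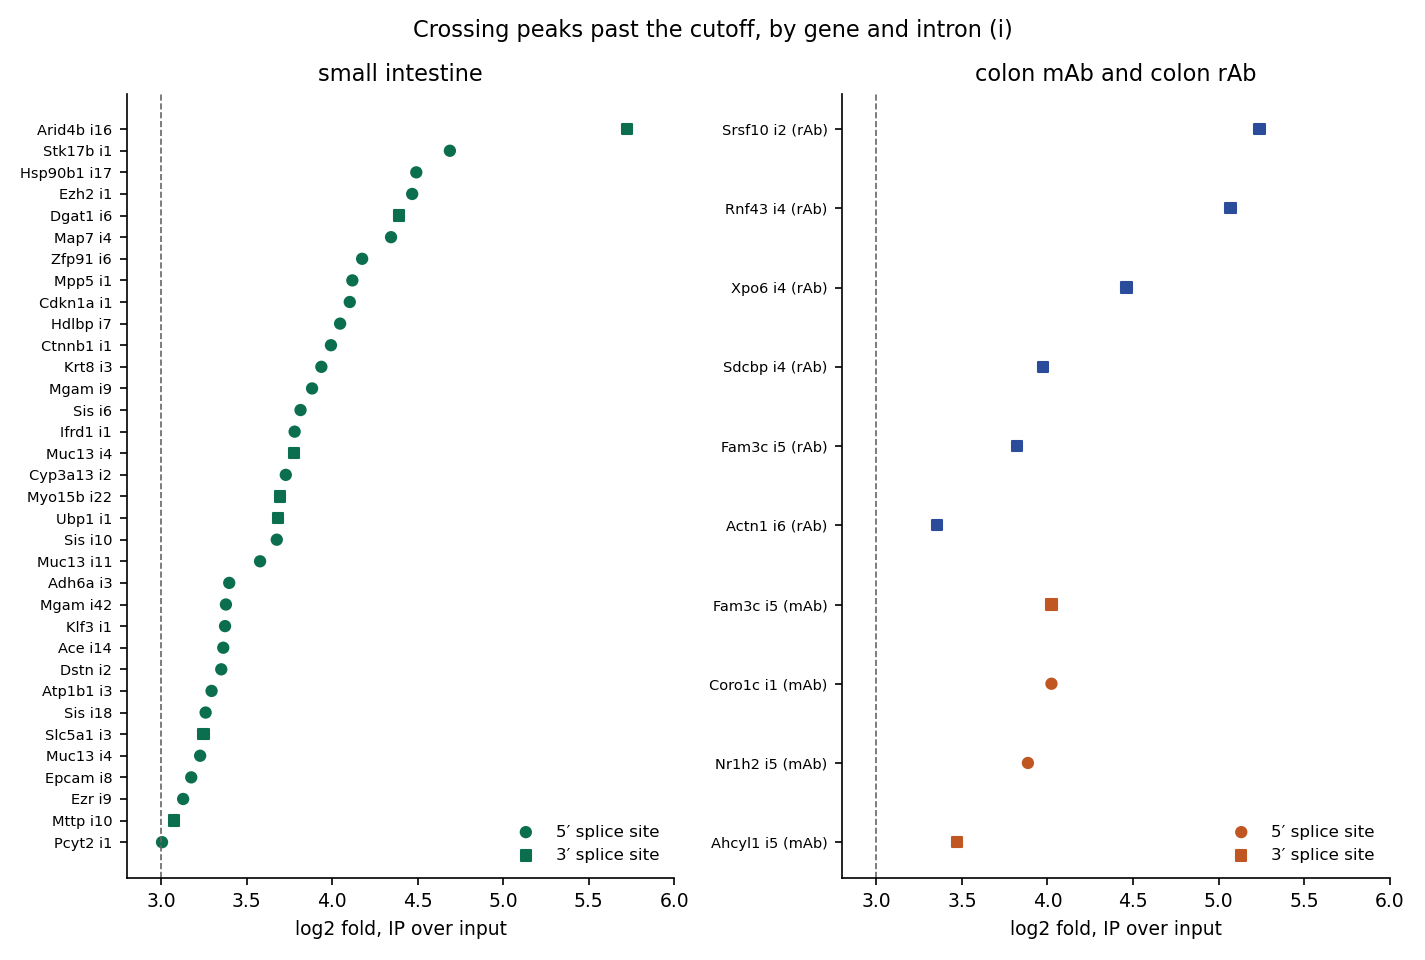
Log2 fold of IP over input (x axis) of every crossing peak past the cutoff, by gene and intron number (i, y axis), in the small intestine on the left and the colon lists on the right. Circles mark 5′ and squares 3′ splice sites, and the dashed line is the cutoff of 3; all 6 colon rAb sites are squares, and the small intestine peaks run from 3.01 (Pcyt2) to 5.72 (Arid4b).

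Fam3c was the only splice site past the cutoff in both colon lists, with 4.02 and 3.82. The colon lists covered 13 splice sites in common (8 at 5′ and 5 at 3′ ends), which is 2.12% of the 614 splice sites of mAb and 6.57% of the 198 of rAb. Over these 13 the median log2 fold was 0.886 in mAb and 1.24 in rAb. Members lay over any peak of the other colon list as often as other peaks did: 18.2% of mAb members and 18.2% of all mAb peaks overlapped a rAb peak, and 33.5% of rAb members and 32.0% of all rAb peaks overlapped a mAb peak.

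Srsf10 intron 2 belongs to a rare class. Of 186389 annotated 3′ splice sites of principal transcripts, 195 (0.105%) end in AC. The Srsf10 intron starts with AT and ends with AC, and its first 9 bases are ATATCCTTT, the kind of intron removed by the minor spliceosome with U11 and U12 in place of U1 and U2. In colon mAb 1 further AT to AC intron was covered, at the 5′ splice site of Arpc5 intron 1 (log2 fold -0.02), whose first 9 bases are ATATCCTTA. Arpc5, a subunit of the actin-nucleating Arp2/3 complex, was named after its value was seen. The usual GT stood at 334 of 339 mAb, 124 of 124 rAb and 27 of 27 small intestine 5′ pairs, and the other 4 introns of mAb began with GC.

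In the small intestine the folds at 5′ splice sites ran from 3.01 to 4.69, and at 3′ splice sites from 3.08 to 5.72. Stk17b, a serine/threonine kinase, was highest at 5′ ends with 4.69, followed by Hsp90b1, the endoplasmic reticulum chaperone GRP94, with 4.49. Ezh2, the histone methyltransferase of Polycomb repressive complex 2, had 4.47, Map7, a microtubule-associated protein, 4.34, and Zfp91, a zinc finger ubiquitin ligase, 4.18. The −log10 p of these 5 lay between 8.59 and 28.7. At 3′ ends Arid4b, a chromatin protein of the Sin3 complex, had 5.72, the highest of all 34. Dgat1, which makes triglyceride from absorbed fat, had 4.39, Muc13 3.78, the unconventional myosin Myo15b 3.70 and the transcription factor Ubp1 3.68.

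Of the 7 enterocyte markers with a small intestine peak, 1 had a member, Sis. Sis, the sucrase-isomaltase of the brush border, had 3, at the 5′ splice sites of introns 6, 10 and 18 with log2 folds of 3.82, 3.68 and 3.26. Mgam, the maltase-glucoamylase, had 2, at introns 9 and 42 with 3.88 and 3.38. Slc5a1, the sodium-glucose transporter, had 3.25 at the 3′ splice site of intron 3. Mttp, which loads lipid onto apolipoprotein B, had 3.08 at that of intron 10. No peak of either colon list lay over any of these. Elsewhere on the gene Sis, Slc5a1 and Mttp had 0 colon peaks, while Mgam had 4 in mAb (1 a site, highest 3.37) and 7 in rAb (0 sites, highest 4.24). Over all small intestine peaks, 35.8% lay over a mAb and 19.3% over a rAb peak. Fewer cells of a type and less RNA per cell cannot be told apart in such bulk samples.

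Muc13, a transmembrane mucin, was the 1 gene whose small intestine peaks covered both ends of an intron. At intron 4 the 5′ splice site had 3.23 and the 3′ splice site 3.78, and the last peak, at the 5′ splice site of intron 11, had 3.58. Introns with both ends covered numbered 14 in mAb and 3 in rAb. Krt8 (3.94) and the membrane-actin linker Ezr (3.13) had a peak at a 5′ splice site, as had β-catenin, Ctnnb1 (3.99), and Epcam (3.18). Cdkn1a, the cell cycle inhibitor p21, Klf3, Mpp5, Hdlbp, Ifrd1, Cyp3a13, Adh6a, Ace, Dstn, Atp1b1 and Pcyt2 held the rest, between 3.01 (Pcyt2) and 4.12 (Mpp5). All of these but Klf3 were named to account for every member.

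Sharing between small intestine and colon was slight. Of the 34 splice sites of the small intestine, 3 were also covered in colon mAb (8.82%, and 0.489% of the 614 mAb splice sites) and 0 in colon rAb, and 0 were in all 3 lists. The shared ones were all at 5′ ends. At Klf3 intron 1 the log2 fold was 3.37 in the small intestine and 1.02 in mAb, at Muc13 intron 4 it was 3.23 and 0.56, and at Epcam intron 8 it was 3.18 and -1.09. No shared site reached the cutoff in the colon. The small intestine list holds only peaks past the cutoff, against 1.22% of all mAb peaks. A higher value in the small intestine is thus largely set by the listing, and the levels are not compared. Small intestine members lay over a mAb peak in 9 of 34 (26.5%) and over a rAb peak in 5 of 34 (14.7%), against 35.8% and 19.3% of all small intestine peaks. Of those mAb peaks only that over Ifrd1, in the intron beside the microRNA gene, had a log2 fold above 3 (3.73, with −log10 p of 2.74).

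First introns were covered more often at 5′ splice sites than their number gives. Of the 5′ pairs, 8 of 27 in the small intestine (29.6%, 13.8 to 50.2), 95 of 339 in mAb (28.0%, 23.3 to 33.1) and 34 of 124 in rAb (27.4%, 19.8 to 36.2) lay in the first intron. Of all 5′ splice sites of the same transcripts, 6.71%, 7.12% and 6.62% did. At 3′ splice sites the shares were 48 of 283 in mAb (17.0%, 12.8 to 21.9) and 12 of 79 in rAb (15.2%, 8.10 to 25.03), against 6.93% and 5.90%. In the small intestine it was 1 of 7 (14.3%, 0.361 to 57.9), too few to tell from 4.35%. The 8 first introns of the small intestine were those of Stk17b, Ezh2, Mpp5, Cdkn1a, Ctnnb1, Klf3, Ifrd1 and Pcyt2, of which the first 6 have 5′ UTR on the exon side. These peaks were rich in G and C, with a median of 73.4% (62.2 to 87.2) against 48.4% (39.7 to 68.6) for the 19 at other introns. In mAb the medians were 68.3% (94 peaks) and 55.2% (238 peaks), and in rAb 68.1% (33) and 56.1% (85). The log2 fold of first-intron peaks was higher than that of the others in the small intestine (medians 4.05 and 3.58), and lower in mAb (0.886 and 1.15) and rAb (1.65 and 2.17).

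**Figure D5:**
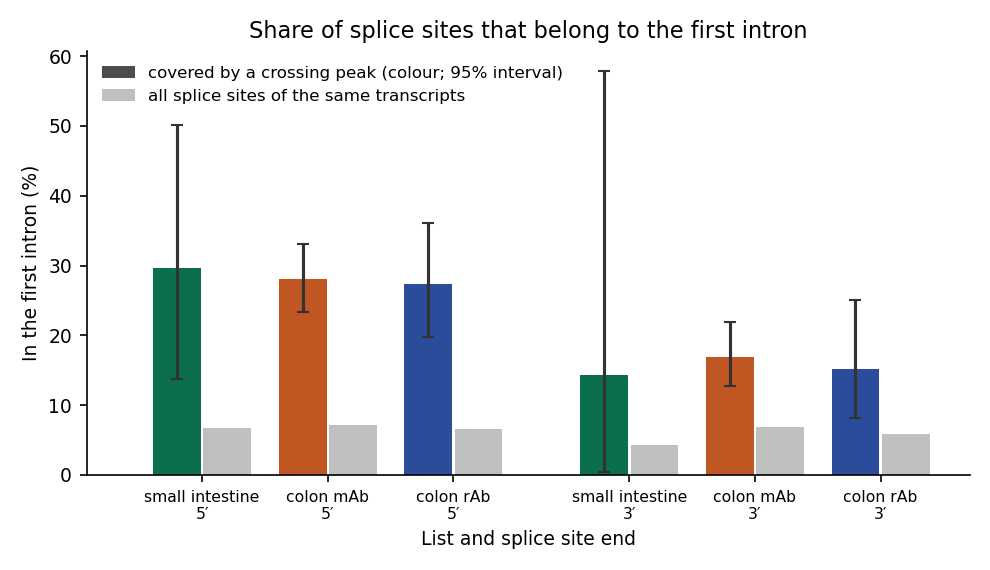
Share of splice sites that belong to the first intron (y axis, percent) among those covered by a crossing peak (coloured bars, with exact 95% intervals) and among all splice sites of the same transcripts (grey bars), by list and splice site end (x axis). At 5′ splice sites the coloured bars stand between 27.4% and 29.6%, and the grey bars between 6.62% and 7.12%.

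The introns at covered 5′ splice sites were longer than those of the same transcripts, with medians of 1428 against 1053 bases in the small intestine, 1555 against 1023 in mAb and 1316.5 against 1008 in rAb. At 3′ splice sites the medians were 1331 against 715, 905 against 774 and 947 against 928. First introns were not set apart in these comparisons, so intron length and the share of first introns cannot be told apart. The strength of the 5′ splice site was close to that of its neighbours: of the 9 bases of the commonest sequence, cagGTAAGT (3 exonic bases in lower case, 6 intronic in capitals), members matched a mean of 6.11, 6.42 and 6.38, and all 5′ splice sites of the same transcripts 6.33, 6.42 and 6.45. Of the 18 bases before the AG of a 3′ splice site, a mean of 11.6, 13.4 and 13.7 were pyrimidines, against 13.4, 13.8 and 13.8; the first of these means rests on 7 small intestine splice sites.

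Recurring strings of 8 bases were looked for in the sequences of the crossing sites, on the strand of the RNA, after those sequences had been seen, so the shares are descriptions. In the small intestine AAGAAGAG was in 6 of the 29 genes (Arid4b, Dstn, Ezr, Hsp90b1, Sis and Zfp91). It was in 17.6% of the 34 members, 4.82% of the 249 peaks wholly in coding exons and 3.20% of the 1030 peaks of the same range of widths; its reverse complement was in 0 of the 34 and in 1 of the 1030. In colon rAb ATGCTGAA and TGCTGAAG were each in 3 of the 6 genes with a site (Actn1, Srsf10 and Xpo6), where they overlap. ATGCTGAA was in 10 of 2280 rAb peaks of the same range of widths (0.439%) and 3 of all 182 rAb sites (1.65%), which are these 3; TGCTGAAG was in 21 of 2280 (0.921%). The reverse complements were in 0 of the 6, and each in 2 of the 2280.

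The genes with most members in the colon held no site. Lypd8, a colonic epithelial protein that keeps flagellated bacteria from the mucosa, had 5 mAb members, all at 3′ splice sites, 1 for each of its 5 introns, with log2 folds of 0.46, 1.11, 1.06, 1.56 and 1.37 from 18 to 28 IP reads. Epcam, an epithelial adhesion protein, also had 5 mAb members, 4 of them at 5′ splice sites, from -2.08 to 0.56. Thbs1, a matrix glycoprotein, had 4, from 0.56 to 2.89. In rAb Sptbn1, a spectrin of the membrane skeleton, had 4 members from 1.88 to 2.65, Fn1, fibronectin, had 4 from 0.21 to 1.65, and Pabpn1, the nuclear poly(A)-binding protein, had 3 from 0.81 to 1.65. Members fell on 29 genes in the small intestine, 503 in mAb and 183 in rAb, most of which had 1 (26, 415 and 169).

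By gene group, members were read against the genes of each list with a peak. Of these, 29 of 407 (7.13%), 503 of 4776 (10.5%) and 183 of 3283 (5.57%) had a member. The shares of all gene groups take no account of how many peaks a gene had. A gene with more peaks has more chances of a member, so a high share is not read as a trait of the group. In colon mAb, 13 of 21 keratin, actin and brush border genes, 12 of 19 cell junction genes and 7 of 11 immediate-early response genes had one, but 0 of their members was a site, beside 4 of 611 over all mAb members. The median log2 fold of these groups was 0.979, 0.564 and 1.56, beside 1.15 over all mAb members. In rAb the first 2 groups had 6 of 17 and 2 of 17 genes with a member and the immediate-early group 0 of 4; the 1 site among them was Actn1. In the small intestine 2 of 12 (Krt8 and Ezr), 2 of 13 (Ctnnb1 and Epcam) and 0 of 7 genes had one.

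Splicing genes showed some crossing peaks in the colon. Of SR protein and hnRNP genes with a peak, 9 of 36 had a member in mAb and 6 of 33 in rAb, with Srsf10 in rAb the 1 site; in the small intestine it was 0 of 13. Of core spliceosome genes, 2 of 26 and 2 of 24 had one. Of DEAD-box and DEAH-box helicase genes, 5 of 29 and 2 of 20 had one. Ddx5 itself had 2 members in mAb, at the 5′ splice sites of introns 11 and 12 (1.89 and 0.56), and 1 in rAb, at intron 1 (-0.05). Of cytosolic ribosomal protein genes, 7 of 72 and 9 of 72 had one.

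Of lipid uptake and lipoprotein genes 2 of 9 had a member in the small intestine (Dgat1 and Mttp) and 0 of 5 in either colon list. Of mucus and goblet cell genes it was 1 of 3 (Muc13), 5 of 17 and 0 of 12, and of solute carrier genes 1 of 7 (Slc5a1), 10 of 81 and 2 of 50. Of Wnt pathway and crypt stem cell genes it was 1 of 2 (Ctnnb1), 4 of 15 and 1 of 12, the last being Rnf43.

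C3, a complement protein, and Fabp1, a fatty acid-binding protein, which the study took up as DDX5 targets, had no crossing peak in any list, although C3 had peaks in both colon lists and Fabp1 in the small intestine. Shroom3, an actin-binding regulator of cell shape, had 1 in colon mAb, at the 5′ splice site of intron 5, with a log2 fold of 1.79 from 7 IP and 3 input reads.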

How the data were processed

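The authors called peaks with CLIPper on each IP sample, and deposited, per peak, the log2 fold of depth-normalised IP over input reads and the −log10 p of that enrichment. For the small intestine they deposited 1 list from an irreproducible discovery rate analysis of 2 replicates, filtered at 3 for both values. The submitters' processing notes name cutadapt 1.9.1, STAR 2.4.0i, SAMtools 1.4.1 and the build mm10. Depth per library was not given in the sources used here. Colon reads per peak were traced from fold and p-value (98.8% of 13011 mAb and 99.2% of 8282 rAb peaks with a p-value). The tracing took the commonest fold of each list as 3 IP reads over 1 input read. It allowed no input count below 1, so a traced input of 1 read is its lowest possible value. 1 further list, whose name matches no sample label, was not used.

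Splice sites came from 1 APPRIS principal transcript per protein-coding gene of GENCODE M21. Deposited starts were counted from 0 and ends taken as exclusive. Peaks were intersected with them in Python 3.11.15 (pandas 2.3.3, scipy 1.17.1, pysam 0.24.0), and sequences were read from the RefSeq GRCm38 genome. The crossing search and the tracing were tested on simulated data. Intervals are exact Clopper-Pearson; a share of 0 is bounded by 3 counts. No test between groups was possible with 1 list each.

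Named were, per list and end, the 5 sites of highest log2 fold; sites shared between lists; the 3 genes with most members per list; C3, Fabp1, Ahcyl1, Shroom3 and Ddx5; and up to 3 genes with a site per gene group. One result that met the rules for a closer look is not reported here. Members and lists were chosen with earlier results of these data known. Alternatives covered the least bases (1 or 10), the transcripts used, joined peaks, small RNAs, annotated exons and the cutoff.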

Additional observations from a re-analysis of the deposited data

Results flagged for a closer look

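At 2 of the splice sites reported here a list had a log2 fold above 0 and another list one below 0; the differences were not tested, since each list is 1 set of values. At the 5′ splice site of Epcam intron 8 the log2 fold was 3.18 in the small intestine and -1.09 in colon mAb. At that of Vmp1 intron 11, in a gene for an autophagy membrane protein, it was 1.18 in colon rAb and -0.44 in colon mAb. The −log10 p of both mAb peaks was listed as 0. The small intestine list holds only peaks with a log2 fold of 3 or more. A value above 0 at Epcam was therefore fixed by that filter, which the colon lists do not have.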

How the results depend on the processing

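Of 242 recomputed values, 197 stayed within the interval of the reported share or median, or within 1.5 times the reported count, and 45 moved. A change of sign was possible only for the 32 median log2 folds, of which 0 changed. Those of the small intestine could not, since its list holds only folds of 3 or more. Its share past the cutoff could move only with the cutoff. The counts of members and shared splice sites moved most with the least number of bases, and the share past the cutoff with a minimum of reads. With 1 base on each side the members were 120, 2075 and 992 (small intestine, mAb, rAb), the small intestine 5′ share was 57.5%, the share of sites that cross was 9.39%, 8.46% and 18.7%, the median log2 fold 0.979 (mAb) and 1.65 (rAb), and the share in no annotated exon 79.1% and 77.0%; shared splice sites were 20, 10 and 255 (small intestine with mAb, with rAb, and mAb with rAb) and 6 in all 3 lists. With 10 bases the members were 20, 397 and 115, the share of sites that cross 1.56% in the small intestine and 1.10% in rAb, and shared splice sites 1 (small intestine with mAb) and 4 (colon). With every basic transcript, 66.3% of mAb and 58.5% of rAb members lay in no annotated exon and 27 colon splice sites were shared. Leaving out members over other annotated exons left 8 shared in the colon, and requiring sites in both lists left 0 (small intestine with mAb) and 1 (colon). A log2 fold of 4 left 29.4% of small intestine members and 1.29% of sites crossing, and a −log10 p of 5 left 0.164% of mAb members. Most of all small intestine peaks passed a log2 fold of 4, as their median was 4.29. Of all mAb peaks 1.22% were sites, and most of these 201 passed a −log10 p of 5, as their median was 5.28. With 10 or more IP reads, 7.84% of mAb and 33.3% of rAb members were sites (17.4% and 17.9% of all peaks with as many reads), with medians of 1.02 and 1.85. Of 2 alternatives chosen after seeing the data, taking off the intronic run equal to the next exon changed no value beyond these limits, nor did leaving out the last base of each peak. With that base left out and 1 base on each side, the members were 91, 1154 and 450, the mAb 5′ share 50%, the share of sites that cross 7.12%, 6.47% and 10.4%, and shared splice sites 7, 3 and 55. No paired analysis was possible because the small intestine list merges its replicates and the colon lists have 1 sample each, and leaving out single replicates was not run for the same reason. The cause of these changes was not tested. Traced colon members had a median of 5 (mAb) and 4 (rAb) IP reads.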
